A study of Mus musculus with 12 samples.

Results

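Autophagy and lysosome control genes were followed in mouse liver, as a set of 35 genes chosen by symbol, out of 48440 genes in the deposited tables. They cover the steps of macroautophagy in order, namely initiation (5 genes), nucleation (4), membrane supply (5), conjugation (6), the ATG8 proteins (5), cargo receptors (5), and the lysosome with its regulators (5). The livers came from 8-week male C57BL/6 mice on a chow diet, with 12 h light and 12 h dark, and their poly(A) RNA was sequenced. Wild-type mice (WT) and transgenic mice that overexpress E4BP4 in the liver only (TG) were sampled at ZT2 and ZT14, with 3 libraries in each of the 4 groups. ZT is the number of hours after lights on, so that ZT2 falls soon after the start of the light phase and ZT14 soon after that of the dark phase. All groups share strain, sex, age, diet and lighting. Neither the promoter behind the transgene nor the number of transgenic lines is given in the labels. Whether the 3 libraries of a group are 3 animals is not stated either, and the p-values reflect no more than the spread among those libraries.

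Autophagy carries cytoplasm to the lysosome inside a double membrane. The ULK1 kinase complex starts the process, a lipid kinase complex around VPS34 and Beclin 1 marks the site, ATG2, ATG9 and WIPI proteins feed the membrane, and 2 ubiquitin-like conjugation reactions attach ATG8 proteins to it. Receptors such as p62 tie cargo to the ATG8 proteins, and the transcription factors TFEB and TFE3 act on many autophagy and lysosome genes. In liver, a nocturnal rodent's feeding and fasting cycle is known to set much of the demand for autophagy, with fasting falling in the light phase. E4BP4, the product of Nfil3, is a bZIP repressor that binds D-box elements, which the clock output activators DBP, TEF and HLF also bind.

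The regions just upstream of the RefSeq starts of 4 members are shown (build GRCm38.p6, 5′ to 3′ on the gene's strand), because their genes mark the range of the time results below. Averaged over genotypes, Gabarapl1 and Sqstm1 gave the largest falls from ZT2 to ZT14 among the members called and Bnip3 the largest rise, and Lamp1 the highest level with no call. Bases that lie inside the deposited gene interval were left off. Capitals mark CACGTG, the E-box that is also the core of the CLEAR element of TFEB, and the longer CLEAR stretch GTCACGTG, here on the opposite strand as CACGTGAC. The stretches lie at chr6:129532942-129533159 on the plus strand, chr11:50210828-50211070 and chr7:138909520-138909756 on the minus strand, and chr8:13158911-13159160 on the plus strand, in the order printed.
Gabarapl1: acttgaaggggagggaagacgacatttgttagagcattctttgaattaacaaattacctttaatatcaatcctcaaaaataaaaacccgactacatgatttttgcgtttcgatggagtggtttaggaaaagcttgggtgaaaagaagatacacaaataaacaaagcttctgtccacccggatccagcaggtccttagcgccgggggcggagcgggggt
Sqstm1: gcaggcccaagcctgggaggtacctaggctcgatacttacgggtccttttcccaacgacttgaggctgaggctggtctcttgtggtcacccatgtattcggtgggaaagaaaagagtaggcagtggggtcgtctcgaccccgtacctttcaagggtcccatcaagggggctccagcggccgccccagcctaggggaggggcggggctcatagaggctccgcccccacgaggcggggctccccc
Bnip3: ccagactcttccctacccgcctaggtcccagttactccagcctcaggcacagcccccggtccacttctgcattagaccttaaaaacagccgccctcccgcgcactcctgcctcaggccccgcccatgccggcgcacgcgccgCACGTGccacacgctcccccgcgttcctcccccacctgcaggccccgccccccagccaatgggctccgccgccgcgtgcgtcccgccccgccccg
Lamp1: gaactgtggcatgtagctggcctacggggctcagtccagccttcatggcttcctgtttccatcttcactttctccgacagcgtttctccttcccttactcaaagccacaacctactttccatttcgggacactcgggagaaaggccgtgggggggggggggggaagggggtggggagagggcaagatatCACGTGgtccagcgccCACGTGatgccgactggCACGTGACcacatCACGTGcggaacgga
The Lamp1 stretch holds 4 E-boxes, which start 61, 45, 28 and 15 bases before the RefSeq start, and the Bnip3 stretch holds 1, 108 bases before it. Neither the Gabarapl1 nor the Sqstm1 stretch holds these letters.

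RefSeq windows, 250 bases before to 50 after the start, were found for 28 of the 35 members. CACGTG, searched on both strands, lay in windows of 6 members (Atg14, Atg3, Atg5, Atg7, Bnip3 and Lamp1) and in 7.15% of all 32851 windows. GTCACGTG, which contains it, lay in those of Atg14, Atg3, Atg7 and Lamp1 and in 2.25% of all windows. The window of Atg7 surrounds a RefSeq start inside the deposited Atg7 interval and not at its upstream end. The D-box letters TTATGTAA and TTACGTAA and the C/EBP palindrome TTGCGCAA lay in 0 members' windows, against 0.938%, 0.119% and 0.183% of all windows. Of the 6 members with CACGTG, Bnip3 and Atg5 are among those called for time below and the other four are not. A match is a run of letters and not a bound site.

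Levels of the 35 genes spanned a wide range. Per exon length, the deposited RPKM (exon reads scaled by exon length and library size) averaged 173 ± 6.58 for Lamp1, a major glycoprotein of the lysosomal membrane (SD, n = 12 libraries). Gabarapl1, an ATG8 protein, followed at 108 ± 44.3 RPKM, and Sqstm1, which encodes the cargo receptor p62, at 98.0 ± 21.1 RPKM. Gabarap (68.5), Lamp2 (52.0) and Bnip3 (51.0) came next on this mean RPKM scale. At the low end stood Tfeb at 1.54 ± 0.381, Atg10, the E2-like enzyme that joins ATG12 to ATG5, at 1.53 ± 0.273, and Tecpr1, a tethering factor between autophagosome and lysosome, at 1.36 ± 0.200 RPKM. These 3 overlap within their spread over libraries, and the SD of Gabarapl1 and Sqstm1 holds their time difference. Counts per member and library ran from 88 reads (Atg10) to 12871 reads (Lamp2), so the low members carry the larger counting error.

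Reads in exons and introns were deposited apart. Introns gave 52.4% of the reads of Atg10, 35.5% of Tfeb, 28.3% of Wipi1, a phosphoinositide-binding protein, and 25.7% of Ambra1, a Beclin 1 partner, against 0.368% for Map1lc3a. Intervals of 14 members overlap another gene, and 8 members had under 90% of their reads mapped uniquely. The lowest unique shares belonged to Bnip3 (50.6%), Atg9a (54.0%), Map1lc3b (56.8%) and Lamp1 (59.4%). Map1lc3b lies within the interval of Gm20388 on the same strand, and Lamp1, Sqstm1 and Atg9a each overlap a gene on the other strand. Reads in these shared stretches cannot be assigned here, and the labels do not say whether counting used strand.

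Total gene reads numbered 16035121 to 23981021 per library, and the summed level of 8 hepatocyte markers ran from 71043 to 86381 CPM (read counts per unit of library size, scaled by TMM). Kupffer cell markers summed to 278 to 383 CPM, stellate cell markers to 145 to 263, cholangiocyte markers to 36.0 to 94.5 and lymphocyte markers to 11.3 to 20.4, with overlapping ranges at both times and in both genotypes. Endothelial markers summed to 294 to 321 CPM at ZT2 and 267 to 290.2 CPM at ZT14, without overlap, and 0 of the 6 lists had a marker at 0 in all libraries. On the second principal component (16.5% of variance), the second TG library at ZT2 and the third TG library at ZT14 stood apart, at -30.8 and -33.2 against 2.0 to 12.1 for the other 10. In that order, they also had the highest sums of hepatocyte (82886 and 86381 CPM), Kupffer cell (383 and 379) and lymphocyte markers (20.4 and 18.5). WT at ZT2 replicate 3 came close for Kupffer cell markers, at 374 CPM. Sums of stellate cell, endothelial and cholangiocyte markers were not highest in these 2 libraries. TG at ZT14 replicate 3 was the lowest of the 12 libraries for 15 of the 35 members, and for 11.1% of all genes tested. WT at ZT2 replicate 2 was the highest for 8 members, and for 8.45% of all genes. Nfil3 itself was above every WT library in every TG library, at 38.6 ± 9.74 CPM in WT and 67.8 ± 4.58 in TG at ZT2 and at 31.1 ± 8.32 and 78.6 ± 15.1 at ZT14 (SD, n = 3 each).

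**Figure D1:**
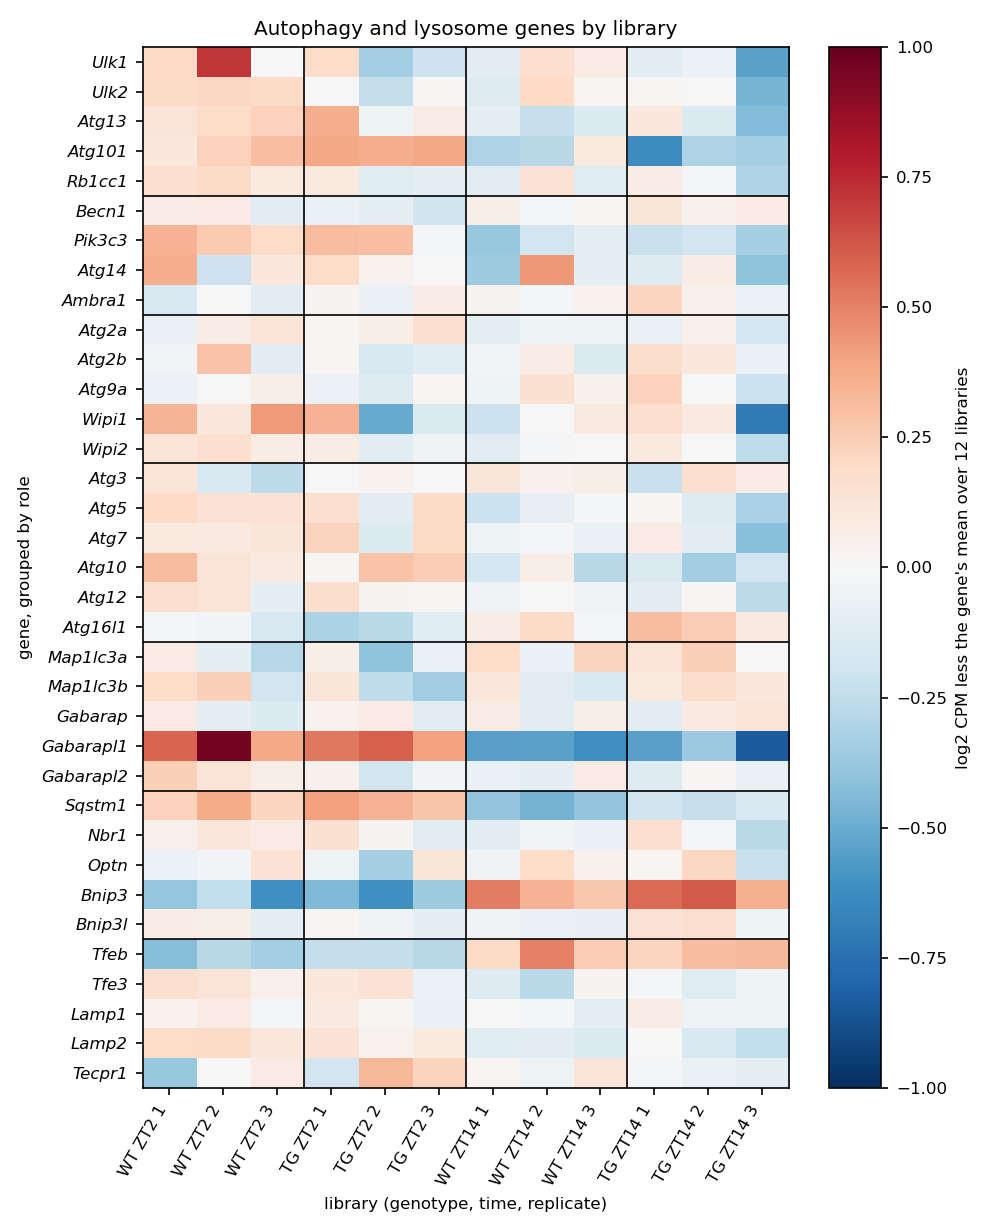
Each cell gives the log2 CPM of 1 gene (rows, grouped by role) in 1 library (columns), less that gene's mean over 12 libraries. Gabarapl1 and Sqstm1 are high in the 6 ZT2 libraries and Bnip3 and Tfeb in the 6 ZT14 libraries, while the column of TG ZT14 replicate 3 is the lowest for 15 members.

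Time of day was the first comparison. In WT liver, 5 of the 35 members passed the test between ZT2 and ZT14, of which 3 were lower at ZT14 (Gabarapl1, Sqstm1 and Pik3c3) and 2 were higher (Bnip3 and Tfeb). In TG liver 7 passed, with 4 lower (these 3 and Atg101) and 3 higher (these 2 and Atg16l1). Over all 15244 genes tested, 9.17% passed in WT (4.85% higher and 4.32% lower) and 12.2% in TG (6.7% higher and 5.52% lower), which is the background for these counts. A gene passed where the Benjamini-Hochberg adjusted p over all genes tested was below 0.05 in edgeR's quasi-likelihood test. Their median log2 fold change was -0.14 in WT and -0.04 in TG, against 0.01 and 0.01 for all genes. The fall in the summed endothelial markers given above went along with these time differences. By edgeR, 2 of 7 endothelial markers passed in TG, 0 in WT and 2 averaged over genotypes, all lower at ZT14. Of 8 hepatocyte markers, 0 passed in WT or in TG, and 2 were higher at ZT14 averaged over genotypes. Kupffer cell markers had negative values for 7 of 7 in WT and 4 of 7 in TG (median log2 fold changes -0.19 and -0.003, 0 called). The part of these 3 lists in the members' time differences was not tested. In bulk tissue, fewer cells of a type and less RNA per cell cannot be told apart.

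Gabarapl1 (ENSMUSG00000030161, chromosome 6, 129533160 to 129542346) encodes an ATG8 protein of the GABARAP subfamily, which decorates the autophagosome membrane and binds cargo receptors. Its level in WT was 309, 400.1 and 269 CPM at ZT2 and 141, 143 and 135 CPM at ZT14. In TG it was 298, 312 and 273 CPM at ZT2 and 142, 159.7 and 116 CPM at ZT14. All 6 ZT2 libraries lay above all 6 ZT14 libraries, with the highest value in WT at ZT2 replicate 2. The level fell 2.33-fold in WT (log2 fold change -1.22, SE 0.14, adjusted p = 0.000268 by edgeR) and 2.12-fold in TG (-1.08, SE 0.14, adjusted p = 0.000569).

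None of the other ATG8 genes passed for time. Map1lc3a and Map1lc3b, which encode LC3A and LC3B, had log2 fold changes of 0.21 and -0.14 in WT and 0.25 and 0.27 in TG. Gabarap stood at 0.05 and 0.03, and Gabarapl2 at -0.18 and -0.01. Adjusted p-values of these 4 genes were 0.217 or more in both genotypes by edgeR. Per exon length, Gabarapl1 ran from 60.1 to 193 RPKM over the 12 libraries while Gabarap ran from 61.2 to 78.2. Gabarapl1 was the higher of the pair in every ZT2 library, while the order differed among the ZT14 libraries.

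Among cargo receptors, Sqstm1 (ENSMUSG00000015837, chromosome 11, 50199366 to 50210827) encodes p62, which binds ubiquitin on cargo and is itself degraded by autophagy. Sqstm1 measured 392, 432 and 389 CPM in WT at ZT2 and 255, 241 and 255 CPM at ZT14. The TG values were 445, 425 and 405 CPM at ZT2 and 292, 285 and 301 CPM at ZT14. No ZT14 library of either genotype reached the lowest ZT2 library. The fall was 1.62-fold in WT (log2 fold change -0.69, SE 0.08, adjusted p = 0.000218 by edgeR) and 1.45-fold in TG (-0.54, SE 0.08, adjusted p = 0.00098).

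Bnip3 (ENSMUSG00000078566, chromosome 7, 138890836 to 138909519), a receptor on the outer mitochondrial membrane that takes part in mitophagy, went the other way. WT libraries held 87.3, 95.8 and 74.4 CPM at ZT2 and 162, 144 and 137 CPM at ZT14. TG libraries held 83.6, 74.3 and 88.8 CPM at ZT2 and 169, 174 and 146 CPM at ZT14. Every ZT14 library lay above every ZT2 library. The rise was 1.73-fold in WT (log2 fold change 0.79, SE 0.11, adjusted p = 0.00101 by edgeR) and 1.98-fold in TG (0.98, SE 0.11, adjusted p = 0.000204). On uniquely mapped reads alone, which are 50.6% of its reads, the log2 fold changes were 0.78 in WT and 0.98 in TG.

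Its paralogue Bnip3l, which encodes the mitophagy receptor NIX, stood at -0.08 in WT and 0.13 in TG on the log2 scale and did not pass (adjusted p = 0.604 and 0.325 by edgeR). Nbr1, a receptor that shares domains with p62, had log2 fold changes of -0.15 and -0.06, and Optn, a receptor for ubiquitin-tagged mitochondria, of 0.04 and 0.09. Neither passed in either genotype, so 2 of the 5 cargo receptors passed, in opposite directions.

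Tfeb (ENSMUSG00000023990, chromosome 17, 47737030 to 47792419) encodes the transcription factor that acts through CLEAR elements. It was counted at 9.78, 10.8 and 10.4 CPM in WT at ZT2 and at 15.1, 18.6 and 15.7 CPM at ZT14. In TG the counts came to 11.1, 11.2 and 10.9 CPM at ZT2 and to 15.3, 16.3 and 16.5 CPM at ZT14. The ranges of the times did not overlap in either genotype. Tfeb rose 1.59-fold in WT (log2 fold change 0.67, SE 0.10, adjusted p = 0.00115 by edgeR) and 1.45-fold in TG (0.54, SE 0.10, adjusted p = 0.00416).

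Tfe3, a factor of the same family, did not share that rise. It stood at -0.24 on the log2 scale in WT (adjusted p = 0.131 by edgeR) and -0.13 in TG. Lamp1 had log2 fold changes of -0.07 in WT and -0.02 in TG, and Tecpr1 of 0.12 and -0.20, and none of the 3 passed. Lamp2, a lysosomal membrane protein needed for fusion and for chaperone-mediated autophagy, was at 605, 609 and 575 CPM in WT at ZT2 and 491, 494 and 485 CPM at ZT14. The TG libraries read 589, 547 and 569 CPM at ZT2 and 532, 479 and 449 CPM at ZT14. Its ranges were apart in both genotypes, yet its log2 fold change of -0.28 in WT (adjusted p = 0.0573 by edgeR) and of -0.22 in TG (adjusted p = 0.11) missed the threshold.

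**Figure D2:**
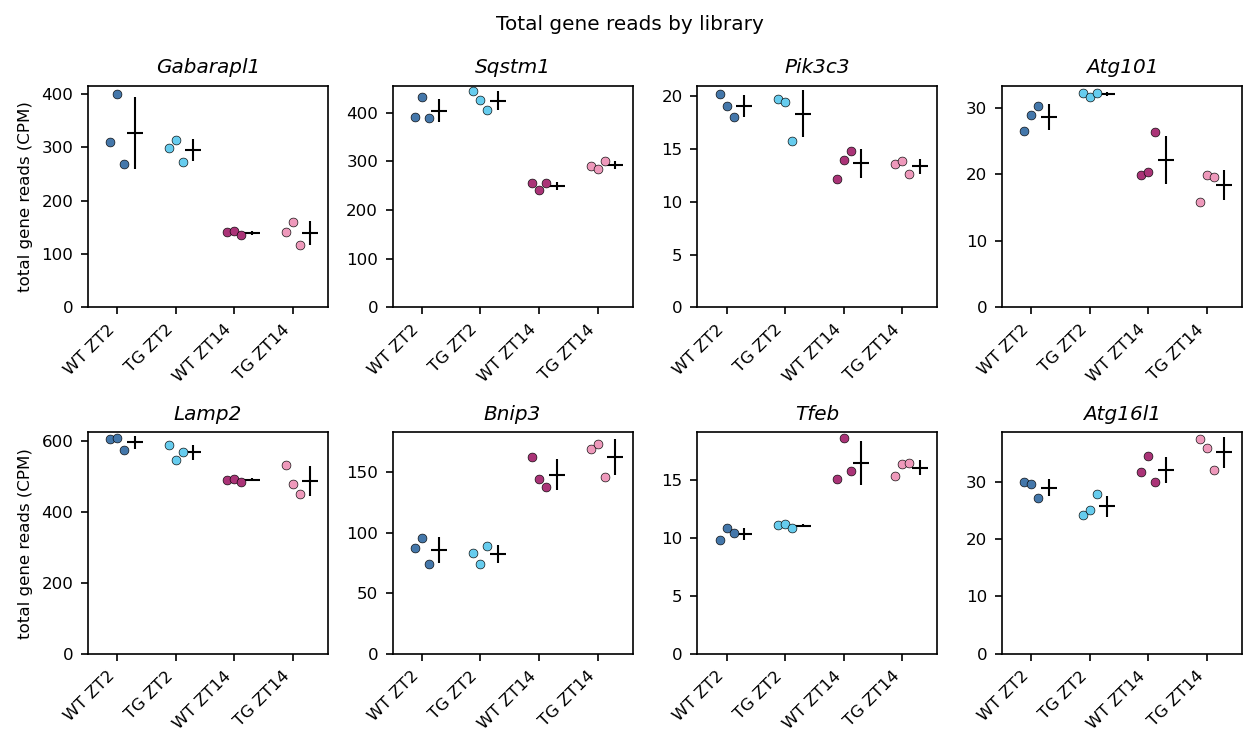
Total gene reads of 8 members, in CPM on linear axes from 0, with 1 point per library, and a bar for the mean and SD of each group (n = 3). Gabarapl1, Sqstm1 and Lamp2 are lower and Bnip3 and Tfeb higher at ZT14 in both genotypes without overlap. Atg16l1 overlaps between the times in WT, by a near tie.

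Of the 5 initiation genes, Atg101 (ENSMUSG00000037204, chromosome 15, 101284301 to 101290934), a subunit that stabilises ATG13 in the ULK1 complex, passed in TG. Atg101 stood at 32.3, 31.7 and 32.3 CPM in TG at ZT2 and at 15.9, 19.96 and 19.6 CPM at ZT14. WT libraries gave 26.6, 28.9 and 30.4 CPM at ZT2 and 19.96, 20.3 and 26.3 CPM at ZT14. Times did not overlap in either genotype, and WT at ZT14 replicate 3 came within 1 CPM of the lowest ZT2 library. The fall was 1.74-fold in TG (log2 fold change -0.80, SE 0.12, adjusted p = 0.00119 by edgeR), and the WT value was -0.37 (SE 0.12, adjusted p = 0.0757). The scaffold genes Atg13 and Rb1cc1 and the kinase genes Ulk1 and Ulk2 had negative log2 fold changes in both genotypes, from -0.33 to -0.04, and did not pass.

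Pik3c3 (ENSMUSG00000033628), the lipid kinase VPS34, was the nucleation gene that passed. In WT it measured 20.1, 19.0 and 17.995 CPM at ZT2 and 12.1, 13.9 and 14.8 CPM at ZT14, and in TG 19.7, 19.5 and 15.7 CPM and 13.6, 13.9 and 12.6 CPM. The times were apart in both genotypes, with TG at ZT2 replicate 3 nearest to the ZT14 libraries. Pik3c3 fell 1.398-fold in WT (log2 fold change -0.48, SE 0.11, adjusted p = 0.0156 by edgeR) and 1.37-fold in TG (-0.45, SE 0.11, adjusted p = 0.0181). The WT call was lost without WT at ZT2 replicate 1 or without WT at ZT14 replicate 1, with adjusted p up to 0.0771. The TG call was lost without TG at ZT2 replicate 1, TG at ZT2 replicate 2 or TG at ZT14 replicate 3, and without the last 2 together, with adjusted p up to 0.125.

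Its partners Becn1 (Beclin 1), Atg14, which directs the complex to autophagosome sites, and Ambra1 did not pass. Becn1 stood at 0.00 in WT and 0.20 in TG on the log2 scale (adjusted p = 0.992 and 0.0976 by edgeR). None of the 5 membrane supply genes passed in either genotype. The lipid transfer genes Atg2a and Atg2b, the scramblase gene Atg9a, and Wipi1 and Wipi2 had log2 fold changes from -0.34 to 0.05 in WT and from -0.15 to 0.16 in TG.

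Within the conjugation genes, Atg16l1 (ENSMUSG00000026289, chromosome 1, 87755870 to 87792428), which directs the ATG12-ATG5 conjugate to the membrane, passed in TG. TG libraries had 24.2, 25.0 and 27.8 CPM at ZT2 and 37.3, 35.9 and 32.0 CPM at ZT14, without overlap. In WT the values were 29.9, 29.6 and 27.2 CPM at ZT2 and 31.7, 34.4 and 29.9 CPM at ZT14, and the times overlapped. That overlap was close to a tie, with 29.868 CPM in ZT2 replicate 1 against 29.858 CPM in ZT14 replicate 3. Atg16l1 rose 1.37-fold in TG (log2 fold change 0.45, SE 0.09, adjusted p = 0.00635 by edgeR), and in WT stood at 0.15 (SE 0.09, adjusted p = 0.364). The E1-like Atg7, the E2-like Atg3 and Atg10, Atg5 and the ubiquitin-like Atg12 did not pass in either genotype taken alone.

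**Figure D3:**
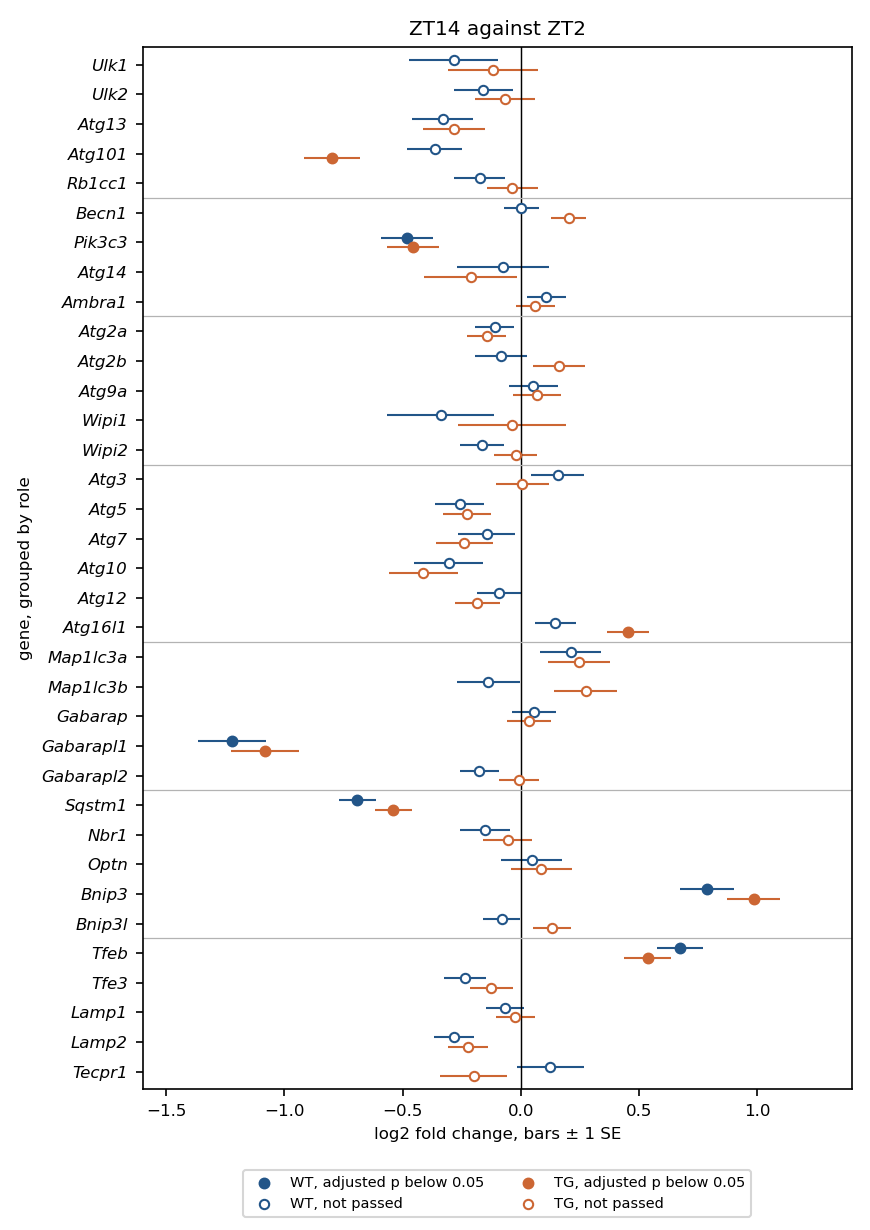
Log2 fold change of ZT14 against ZT2 for the 35 members, with bars of 1 SE, in WT (blue) and TG (orange). Filled points passed the adjusted threshold of 0.05, and 5 are filled in WT and 7 in TG.

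All 5 members called in WT were also called in TG with the same direction. Over all genes tested, 896 of the 1398 called in WT were also called in TG, counted without regard to direction. Of the 35 members, 31 had the same sign of time change in both genotypes (88.57%), against 70.97% of all genes tested. Over the 35 genes the log2 fold changes in WT and TG had Pearson's r of 0.88, against 0.60 over all genes, as a description, since genes of the same libraries share scaling and are not independent. The sets also differ in depth, as members had 88 reads or more in every library and all genes tested include some near the filter. The part of depth in r and in the shares of same sign was not tested. Ranges of the 2 times did not overlap for 15 members in WT (2 higher and 13 lower at ZT14) and 10 in TG (4 higher and 6 lower). Over all genes that share was 29.3% and 30.0%, while 9.17% and 12.2% passed the test. Counted from exon reads alone, 8 members passed in WT in place of 5, with Atg101, Atg13 and Lamp2 added, and 11.1% of genes did so on that count.

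Averaged over both genotypes, 11 members passed for time, 8 lower and 3 higher at ZT14, against 22.5% of all genes (12% higher and 10.4% lower). The median log2 fold change was -0.10 for the members and 0.00 for all genes. Besides the 7 genes above, Lamp2 fell 1.19-fold (log2 fold change -0.25, SE 0.06, adjusted p = 0.00934 by edgeR). Atg13, Atg5 and Atg10 completed the list.

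Atg10 (chromosome 13, 90935349 to 91223987) was at 6.35, 5.57 and 5.43 CPM in WT at ZT2 and 4.50, 5.34 and 4.20 CPM at ZT14, and in TG at 5.14, 6.21 and 6.04 CPM and 4.61, 4.01 and 4.45 CPM. Atg5 (chromosome 10, 44268358 to 44364291), which joins ATG12 in the conjugate, was at 46.1, 44.4 and 44.5 CPM and 34.7, 38.1 and 40.0 CPM in WT, and 44.9, 37.4 and 46.0 CPM and 40.7, 36.8 and 32.1 CPM in TG. Atg13 (chromosome 2, 91674618 to 91710576) was at 72.2, 74.6 and 77.1 CPM and 61.7, 56.2 and 60.1 CPM in WT, and 84.8, 63.9 and 69.4 CPM and 71.0, 59.5 and 48.7 CPM in TG. For all 3 genes the times were apart in WT, while in TG Atg5 and Atg13 overlapped.

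They fell 1.28-fold (Atg10, adjusted p = 0.0242), 1.18-fold (Atg5, adjusted p = 0.0296) and 1.24-fold (Atg13, adjusted p = 0.03), by edgeR averaged over genotypes. With each library left out in turn, these calls held in 7, 6 and 4 of 12 fits, whereas that of Lamp2 held in all 12. Atg10 dropped out when ZT2 lost its WT replicate 1 or TG replicate 3, and when ZT14 lost its WT replicate 1, WT replicate 3 or TG replicate 2 (adjusted p up to 0.0675). Atg5 dropped out when ZT2 lost its TG replicate 1 or 3, and when ZT14 lost replicate 1 or 2 of WT, or 2 or 3 of TG (adjusted p up to 0.0809). Atg13 dropped out when ZT2 lost its WT replicate 2 or 3 or TG replicate 1, and when ZT14 lost any WT replicate or TG replicate 2 or 3 (adjusted p up to 0.0686). Atg10 was also lost without the 2 libraries that stood apart. Without those 2 libraries the count of members called was 7 in WT, 6 in TG and 11 on average.

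Intron reads, which come from unspliced or intron-retaining transcripts, gave another view of time for 33 members. Map1lc3a and Map1lc3b, with 11 intron reads or fewer per library, were too low to test. On intron reads 3 members passed in TG, all lower at ZT14 (Gabarapl1, Sqstm1 and Lamp2), and 0 in WT, against 5.64% and 1.93% of the 12380 genes tested. At an unadjusted p under 0.05 there were 9 members in TG and 6 in WT, where 21.2% and 15.5% of all genes lay under it, and DESeq2 called 3 and 0. The median log2 fold change of the members was -0.31 in TG and -0.20 in WT, against 0.01 and -0.01 for all genes. When the genotypes were compared for their intron change with time (interaction), edgeR called 0 of the 33 members. At an unadjusted p under 0.05 it had 0 members, against 6.24% of all genes. The 3 intron calls in TG and not in WT are therefore not shown to differ between the genotypes. In TG, 1 member (Gabarapl1) passed without TG at ZT14 replicate 2, without TG at ZT14 replicate 3, or without the 2 libraries that stood apart, and 5 passed without WT at ZT14 replicate 1.

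Gabarapl1 had 74.5, 104 and 104 intron CPM (intron reads scaled by their own library totals) in TG at ZT2 and 35.2, 25.3 and 6.44 at ZT14. In WT it had 44.5, 49.3 and 65.7 at ZT2 and 11.9, 21.0 and 36.9 at ZT14. The times did not overlap in either genotype, and the lowest value, in TG at ZT14 replicate 3, rests on 18 reads. Intron reads fell 4.25-fold in TG (log2 fold change -2.09, SE 0.44, adjusted p = 0.0134 by edgeR), and the WT value was -1.19 (adjusted p = 0.203).

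Sqstm1 introns gave 154, 201 and 159 intron CPM in TG at ZT2 and 117, 104 and 84.4 at ZT14. Lamp2 introns gave 476, 406 and 459 in TG at ZT2 and 294, 264 and 286 at ZT14. For both genes the TG libraries of the times did not overlap. Sqstm1 intron reads fell 1.68-fold (log2 fold change -0.75, SE 0.17, adjusted p = 0.0212 by edgeR) and those of Lamp2 1.59-fold (-0.67, SE 0.16, adjusted p = 0.0258). WT values were -0.39 for Sqstm1 and -0.38 for Lamp2 and did not pass.

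For Bnip3 the 2 kinds of read had log2 fold changes of opposite sign. Exon reads rose at ZT14 by 0.84 on the log2 scale in WT and 1.02 in TG, while intron reads stood at -0.43 in WT (SE 0.31, adjusted p = 0.56 by edgeR) and -0.34 in TG (SE 0.32, adjusted p = 0.6). Its introns gave 46.0, 62.4 and 59.2 intron CPM in WT at ZT2 and 28.3, 66.2 and 28.8 at ZT14, and the times overlapped. The difference between exon and intron reads was not tested. Tfeb had log2 fold changes on intron reads of 0.43 in WT (adjusted p = 0.336 by edgeR) and 0.69 in TG (adjusted p = 0.069), the same sign as on exon reads (0.77 and 0.43).

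Ulk1, the kinase that starts autophagy, had intron log2 fold changes of -0.69 in WT and -0.95 in TG (adjusted p = 0.389 and 0.149 by edgeR) beside exon values of -0.23 and -0.01. WT at ZT2 replicate 2 held 253 intron CPM of Ulk1, against 91.6 and 102 in the other WT libraries at ZT2. The same library had the highest total level of Ulk1, at 132 CPM.

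**Figure D4:**
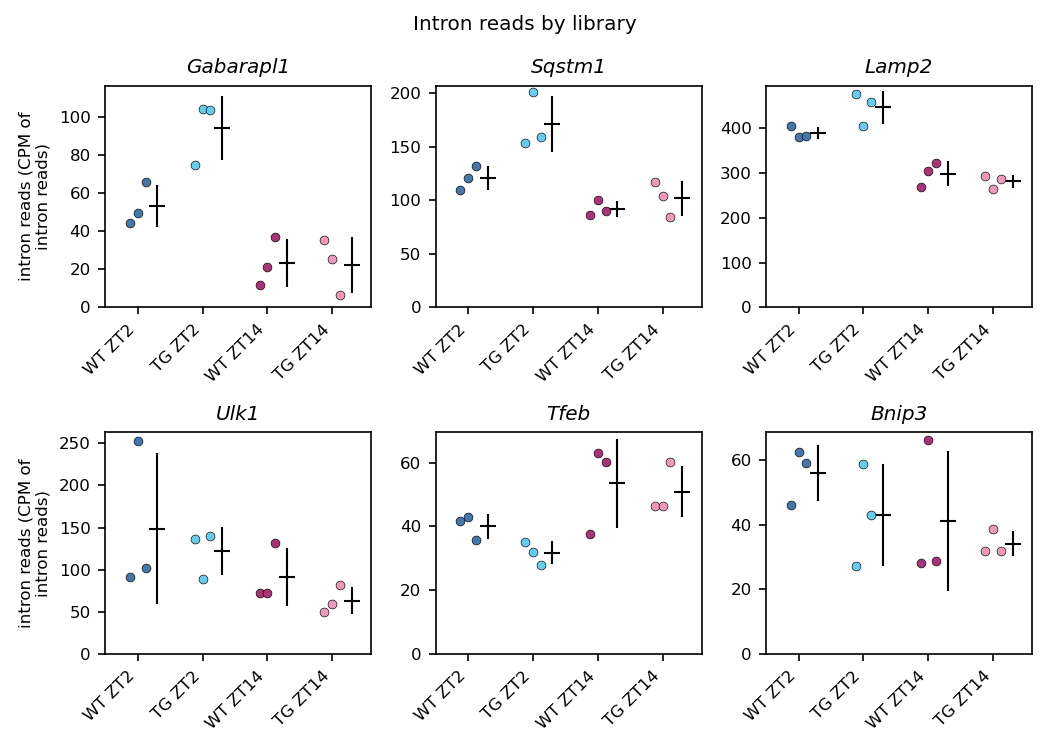
Intron reads of 6 members, in intron CPM on linear axes from 0, with 1 point per library, and a bar for the mean and SD of each group (n = 3). Gabarapl1, Sqstm1 and Lamp2 are lower at ZT14 without overlap in TG, Bnip3 overlaps between times, and Ulk1 has 1 high library, WT ZT2 replicate 2.

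Genotype was the second comparison, between livers with and without the E4BP4 transgene. No member passed between TG and WT at ZT2, at ZT14 or averaged over both times, where 0.0722%, 0.0853% and 0.144% of all genes passed by edgeR. At an unadjusted p under 0.05 there were 2, 2 and 3 members, while 7.56%, 6.91% and 8.82% of all genes lay under it, and DESeq2 called 0 in each. Median log2 fold changes of the members were -0.06, -0.01 and -0.04. Among markers of other cells, 7 of 7 stellate cell markers had positive values averaged over times (median 0.38, 4 at an unadjusted p under 0.05, 0 called by edgeR and 1 by DESeq2). At ZT2, 6 of 6 cholangiocyte markers did (median 0.65, 2 at an unadjusted p under 0.05, 0 called by edgeR and 1 by DESeq2). At ZT14, 3 of 6 did (median -0.06). Averaged over times, 5 of 5 lymphocyte markers tested were positive (median 0.61, 0 at an unadjusted p under 0.05). So were 5 of 7 Kupffer cell and 4 of 7 endothelial markers (medians 0.02 and 0.07). The part of these lists in the members' values was not tested. Nfil3 itself gave log2 fold changes of 0.81 at ZT2 (SE 0.21, adjusted p = 0.359), of 1.34 at ZT14 (SE 0.21, adjusted p = 0.0306) and of 1.07 on average (SE 0.15, adjusted p = 0.00942) in the same fit.

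The smallest p-values at ZT2 belonged to Gabarapl2, Ulk1 and Ulk2. Gabarapl2, the ATG8 protein GATE-16, was at 49.6, 46.1 and 44.1 CPM in WT and 43.2, 37.0 and 41.3 CPM in TG, without overlap (log2 fold change -0.20, SE 0.08, adjusted p = 0.63 by edgeR). Of its reads, 65.3% mapped uniquely. Ulk1 was at 92.6, 132 and 80.6 CPM in WT and 91.7, 63.7 and 70.0 CPM in TG, with overlap (-0.44, SE 0.19, adjusted p = 0.639). Without WT at ZT2 replicate 2 that Ulk1 value was -0.21. Ulk2, its close relative, was at 93.7, 94.9 and 93.6 CPM in WT and 82.3, 69.8 and 83.1 CPM in TG, without overlap (-0.26, SE 0.13, adjusted p = 0.678).

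At ZT14 the first were Sqstm1, Atg101 and Bnip3l. The Sqstm1 levels given above were higher in the 3 TG libraries than in the 3 WT libraries (log2 fold change 0.22, SE 0.08, adjusted p = 0.626 by edgeR). Those of Atg101 were lower in TG (-0.27, SE 0.12, adjusted p = 0.703 by edgeR). The nearest libraries were close to a tie, at 19.962 CPM in WT and 19.96 CPM in TG. Without WT at ZT14 replicate 3 that Atg101 value was -0.13, and without TG at ZT14 replicate 1 it was -0.17. Bnip3l was at 67.3, 65.5 and 65.0 CPM in WT and 76.0, 77.3 and 66.8 CPM in TG, with overlap (0.15, SE 0.08, adjusted p = 0.712).

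Averaged over both times, Sqstm1 (log2 fold change 0.15, adjusted p = 0.489 by edgeR), Ulk1 (-0.36, adjusted p = 0.492) and Ulk2 (-0.22, adjusted p = 0.51) came first, and none passed. Without the 2 libraries that stood apart, Ulk1 was at -0.24 and Ulk2 at -0.11. In the fit to all 12 libraries, the 5 initiation genes all had negative values averaged over both times, with a median of -0.12. Genotypes did not overlap for 6 members at ZT2 (Atg101 and Tfeb higher in TG, Ulk2, Rb1cc1, Gabarapl2 and Wipi2 lower). At ZT14 they did not for 2 (Sqstm1 higher, Atg101 lower by the near tie given above). Over all genes these shares were 12.1% and 12.4%, while 0.0722% and 0.0853% passed the test. The low values of TG at ZT14 replicate 3 entered these averages, and their part was not tested beyond leaving that library out, with 0 members called in each such genotype comparison.

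**Figure D5:**
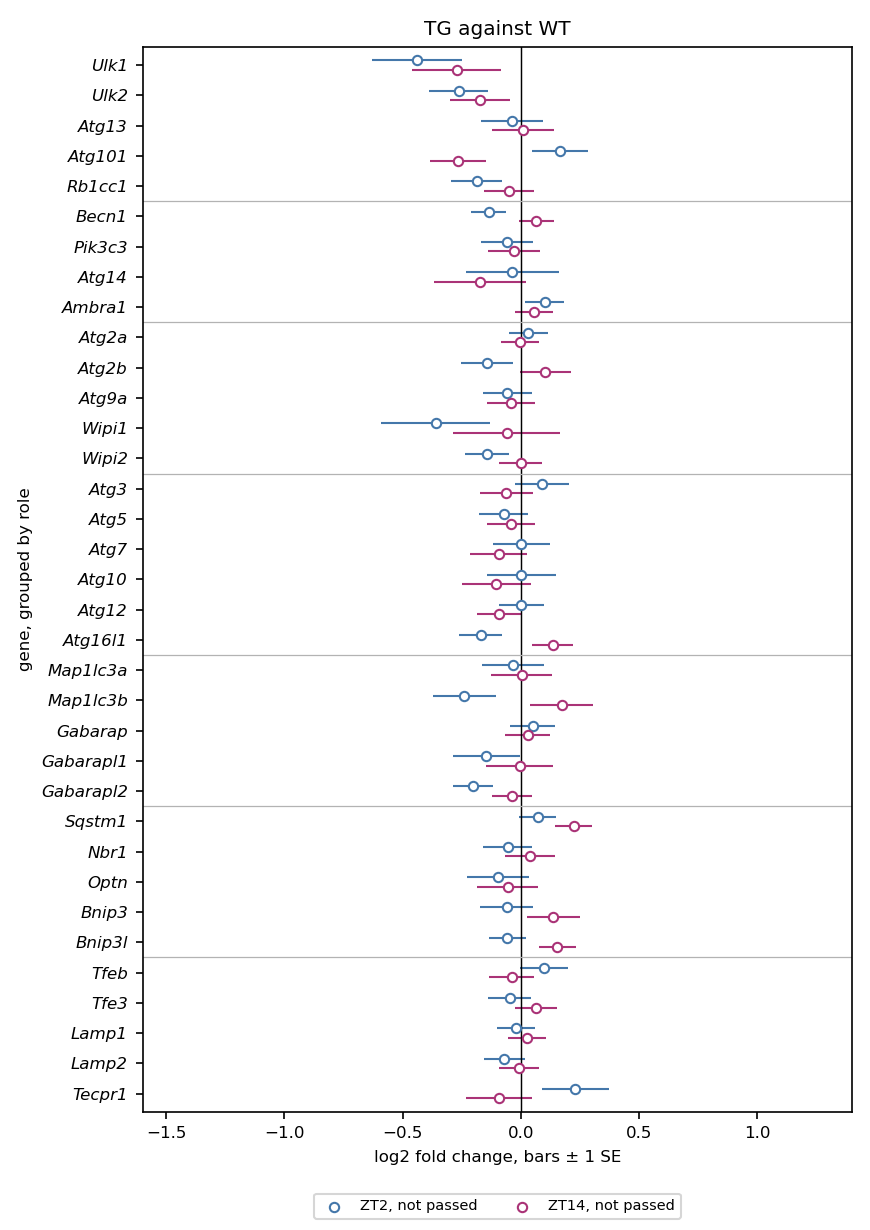
Log2 fold change of TG against WT for the 35 members, with bars of 1 SE, at ZT2 (blue) and ZT14 (purple). No point passed the adjusted threshold of 0.05, and Ulk1 at ZT2 lies farthest from 0, at -0.44.

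The interaction asked whether the time difference in TG departed from that in WT. No member passed, where 0.00656% of all genes did by edgeR, and 3 members lay at an unadjusted p under 0.05 (5.98% of all genes), with 0 called by DESeq2. Atg101 came first, at -0.43 on the log2 scale (SE 0.17, adjusted p = 0.774), a larger fall in TG than in WT. Atg16l1 followed at 0.30 (SE 0.13, adjusted p = 0.792), so the calls of these 2 genes in TG and not in WT are not shown to differ between the genotypes. Map1lc3b came next at 0.41 (SE 0.19, adjusted p = 0.834), and at 0.18 on its uniquely mapped reads, which are 56.8% of the total. The levels of Map1lc3b were 41.6, 43.1 and 32.3 CPM in WT at ZT2 and 39.5, 34.1 and 32.8 CPM at ZT14, and 39.8, 30.6 and 28.8 CPM and 39.1, 41.4 and 39.3 CPM in TG, with overlap between the times in both genotypes. The interactions of Gabarapl1, Sqstm1, Bnip3 and Tfeb were 0.14 (SE 0.20), 0.15 (SE 0.11), 0.20 (SE 0.16) and -0.14 (SE 0.14), none past the threshold.

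Other genes of the pathway were counted by list for time averaged over genotypes, where 22.5% of all genes passed (12% higher and 10.4% lower at ZT14). Of 35 other autophagy machinery genes, 6 were higher and 5 lower at ZT14, with the receptors Calcoco1 and Fam134b for endoplasmic reticulum lower (1.49-fold and 1.82-fold), and the ferritin receptor Ncoa4 (1.36-fold) and the scramblase Tmem41b (1.60-fold) higher. Of 46 lysosomal hydrolases and membrane proteins, 5 were higher and 4 lower, with Gusb (1.46-fold) and Grn (1.42-fold) among the higher ones. V-ATPase subunits, which acidify the lysosome, counted 5 higher and 1 lower of 17, led by Atp6v1d (1.38-fold higher).

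Against the same 22.5% of all genes, 6 of 32 nutrient sensing genes were higher and 7 lower, the latter with Sesn3 (1.46-fold), Tsc1 (1.47-fold), Rictor (1.45-fold) and Flcn (1.69-fold), the folliculin that acts on TFEB through Rag GTPases. Of 13 transcription factors of autophagy genes, 3 were higher and 2 lower, with Nr1h4, the bile acid receptor FXR, 1.65-fold and Foxo3 1.36-fold higher. Without the 2 libraries that stood apart, the counts in that order were 4 and 5, 4 and 3, 2 and 1, 2 and 7, and 3 and 1. In each of these lists 0 genes passed for genotype or the interaction by edgeR.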

How the data were processed

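Liver poly(A) RNA of 12 libraries in 4 groups of 3 was measured, and groups were taken from the sample labels. The authors deposited per library counts of total, uniquely mapped, exon and intron reads for each gene, and RPKM values, per the file headers; in each row the exon and intron reads add up to the total. The builds are mm10 and GRCm38, per the submitters' processing notes; aligner and counter: not given in the sources used here. Each library started from 850 ng of RNA, per the labels' protocols. RPKM served only to describe levels.

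Total gene reads were tested with edgeR 4.0.16 in R 4.3.3 (filterByExpr, minimum count 10, minimum total count 15; TMM; glmQLFit and glmQLFTest). One model covered 12 libraries in 4 groups and 15244 genes, of which all 35 members passed the filter, and intron reads were fitted the same way for 12380 genes. P-values were adjusted by Benjamini-Hochberg over all genes tested. SE is the log2 fold change over the root of the F statistic, and CPM are TMM-scaled. The procedure was checked on simulated counts, drawn independently for each library. Libraries that stand apart together, as 2 did here, were not part of that check. Alternatives were DESeq2 1.42.0, RLE factors or library size in place of TMM, no filter or 1 CPM in 3 libraries, fits to the libraries of a contrast, a replicate block, each library left out, 2 libraries left out together, uniquely mapped reads and exon reads. Every member could be named; library values are given for those called, and for the 3 smallest p-values where fewer than 3 were called. From the other lists up to 4 genes with the smallest p are named. Members and lists were chosen with earlier results of these data known. Promoter windows are RefSeq's (GRCm38.p6). Coordinates are those of the deposited tables, and 30 members have the same ones in the GENCODE annotation used here. Total reads per library numbered 16035121 to 23981021.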

Additional observations from a re-analysis of the deposited data

How the results depend on the processing

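On total reads, counts of members called for time kept within 1.5 times their value under the alternatives run, except that exon reads gave 8 in place of 5 in WT. With each library left out in turn, they ran from 4 to 6 in WT, 6 to 7 in TG and 8 to 12 on average. On intron reads without a filter beyond 1 read, 1 member passed in WT in place of 0 and 5 in TG in place of 3. Leaving out single libraries gave 1 to 5 on intron reads in TG, and leaving out both libraries that stood apart (TG at ZT2 replicate 2, TG at ZT14 replicate 3) gave 1. The cause was not tested. Counts for genotype and the interaction were 0 in every alternative. Of 23 named calls, 5 were lost under at least 1 alternative (Pik3c3 in WT and in TG, and Atg10, Atg5 and Atg13 on average), and 0 of the 35 named values reversed. Without the same 2 libraries, an alternative chosen after seeing the data, V-ATPase calls went from 6 to 3.

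Replicate numbers did not pair the libraries: of 18 same-numbered pairs, 2 had correlated deviations above 0.1, with a range of -0.25 to 0.15. With the replicate block the calls were 6 in WT, 7 in TG, 11 on average, 0 for genotype and the interaction, and 0 and 3 on intron reads. Atg10, with 88 to 135 reads per library, and the intron counts are where depth limits precision most. Libraries of a group differed beyond sampling noise (chi-square per degree of freedom 9.85 to 90.89).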
